A study of Homo sapiens with 6 samples.

Results

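Expression of 10 genes of glutathione metabolism was followed in Capan-1 cells after silencing of GNE, the gene for the enzyme that starts sialic acid synthesis. The genes were GCLC, GCLM and GSS for synthesis, CHAC1, CHAC2 and GGCT for breakdown, GSR for reduction of the oxidised form, and GPX1, GPX2 and GPX4 for peroxidase activity. Every probe set that the platform annotation assigns to one of these genes alone was used, which gave 17 probe sets for the 10 genes, out of 19775 genes with a probe set of their own in the deposited table. The genes were chosen from an earlier view of these arrays in which the siGNE minus control log2 differences were known. Their differences, and the limma calls given for them below, are therefore a description only, and they support nothing beyond themselves.

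Capan-1 is an established human pancreatic carcinoma line. The control group holds 3 arrays of cells transfected with allStar, a control siRNA, and the siGNE group holds 3 arrays of cells transfected with siRNA against GNE. Both groups went through 2 rounds of transfection separated by 48 h, and RNA was taken 72 h after the last round. The titles number the arrays 1 to 3 in each group, and a pair here means the control and siGNE arrays that share a number. Whether each array stands for a culture of its own, and how many siRNAs targeted GNE, is not given in the labels, so every p-value measures only the spread between these arrays, which may be technical. The RNA came from whole cultures, in which fewer cells of a kind and less RNA per cell cannot be told apart.

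Glutathione is a tripeptide of glutamate, cysteine and glycine and the main soluble thiol of the cell. Glutamate-cysteine ligase, made of the catalytic subunit GCLC and the modifier subunit GCLM, carries out the limiting step of its synthesis, and glutathione synthetase (GSS) adds the glycine. The peroxidases GPX1, GPX2 and GPX4 spend glutathione to reduce peroxides and carry selenocysteine in the active site, and glutathione reductase (GSR) returns the oxidised dimer to the thiol form with NADPH. CHAC1 and CHAC2 cleave glutathione in the cytosol, and GGCT releases oxoproline from the gamma-glutamyl dipeptides of the same cycle. CHAC1 is a textbook target of the ATF4 and CHOP stress response, while GCLC, GCLM, GSR and GPX2 are textbook targets of NRF2.

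The deposited values are log2 expression values, with array medians between 2.96 and 3.02, so values near 3 lie close to background. GNE stood at 15.0%, 32.8% and 40.9% of its control in pairs 1, 2 and 3. Of 10 ductal carcinoma markers, 9 had values above 4 on all arrays. The exception was the KRT7 probe set taken by rule. Another KRT7 probe set lay between 13.8 and 14.4, and the others between 2.73 and 3.23. The markers with a probe set of their own for leukocytes (4), endothelium (3), acinar cells (2) and islets (3) were at or under 4 on all arrays. So were 5 of 6 fibroblast markers, the exception being COL1A1 at 7.47 to 9.22. The COL1A1 probe sets 202310_s_at and 217430_x_at lay between 6.60 and 8.53, and 202311_s_at and 202312_s_at between 2.54 and 3.62. The 3′ minus 5′ log2 difference of the actin control probe sets, a sign of RNA integrity, was 0.53 and 0.49 on the control and siGNE arrays of number 3 and between 1.08 and 1.48 on the other arrays.

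Promoter windows of the members that stood highest after siGNE, with CHAC2 as the paralog that did not, are shown because the motifs of the stress factors named above can be looked for in them. The windows run from 250 bases before to 50 bases after the RefSeq start site (assembly GRCh38.p14), and 7 of the 10 genes were matched in the table, with 10 windows. The capitals mark matches on either strand to TGATGNAA, the core bound by ATF4 and its partners, or to TGACNNNGC, the core of the antioxidant response element bound by NRF2, whose TGAC it shares with AP-1 sites. The CHAC1 window is chr15:40953221-40953520 on the plus strand, CHAC2 chr2:53767533-53767832 on the plus strand, GCLC chr6:53545052-53545351 on the minus strand, GCLM chr1:93909381-93909680 on the minus strand and GPX2 chr14:64942696-64942995 on the minus strand.
CHAC1: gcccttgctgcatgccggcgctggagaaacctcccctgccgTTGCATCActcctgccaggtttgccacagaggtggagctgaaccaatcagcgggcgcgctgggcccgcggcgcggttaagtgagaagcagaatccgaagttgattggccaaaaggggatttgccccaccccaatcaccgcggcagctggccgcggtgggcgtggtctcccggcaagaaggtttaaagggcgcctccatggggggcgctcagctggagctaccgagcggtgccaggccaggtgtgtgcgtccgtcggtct
CHAC2: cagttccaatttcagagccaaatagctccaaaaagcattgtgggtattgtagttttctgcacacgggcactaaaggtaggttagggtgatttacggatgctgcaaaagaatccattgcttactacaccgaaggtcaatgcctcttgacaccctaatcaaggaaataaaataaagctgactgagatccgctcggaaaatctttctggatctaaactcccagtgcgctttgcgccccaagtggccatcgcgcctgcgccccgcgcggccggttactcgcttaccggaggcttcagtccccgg
GCLC: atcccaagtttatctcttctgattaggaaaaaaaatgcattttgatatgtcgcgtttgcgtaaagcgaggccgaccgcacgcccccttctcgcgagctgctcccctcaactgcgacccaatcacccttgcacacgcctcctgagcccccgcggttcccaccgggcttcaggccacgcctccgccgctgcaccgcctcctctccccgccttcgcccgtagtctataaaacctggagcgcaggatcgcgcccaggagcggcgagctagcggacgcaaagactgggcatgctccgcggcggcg
GCLM: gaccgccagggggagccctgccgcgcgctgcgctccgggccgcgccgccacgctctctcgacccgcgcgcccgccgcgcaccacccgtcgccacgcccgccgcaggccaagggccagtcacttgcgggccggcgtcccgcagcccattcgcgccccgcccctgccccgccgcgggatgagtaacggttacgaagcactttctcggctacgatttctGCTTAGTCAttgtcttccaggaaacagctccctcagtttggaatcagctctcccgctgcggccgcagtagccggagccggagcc
GPX2: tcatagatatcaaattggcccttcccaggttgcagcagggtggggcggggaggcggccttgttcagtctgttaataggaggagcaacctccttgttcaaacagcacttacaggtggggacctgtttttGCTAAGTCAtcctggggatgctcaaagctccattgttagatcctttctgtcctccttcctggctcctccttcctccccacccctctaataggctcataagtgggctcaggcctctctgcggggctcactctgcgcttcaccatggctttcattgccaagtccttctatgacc

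The CHAC1 window held 1 match to TGATGNAA, read as TTGCATCA on the printed strand at -209 to -202 from the start site. The CHAC2 windows held no match to either motif. TGACNNNGC was matched in GCLM, as GCTTAGTCA at -34 to -26, and in GPX2, as GCTAAGTCA at -122 to -114. No matched letters were shared between the motifs in these windows. Of all 35116 windows in the table, 3.62% held TGATGNAA and 13.3% held TGACNNNGC. The GCLC, GPX1 and GPX4 windows held neither, which says only that these letters are not within them. GSR, GSS and GGCT are not shown.

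The catalytic subunit of the limiting ligase, GCLC, was higher after siGNE in all 3 pairs. Its probe set 202922_at had log2 values of 8.81, 8.67 and 8.49 on control arrays 1, 2 and 3 and of 9.71, 10.09 and 9.97 on the siGNE arrays. The groups did not overlap, and the lowest siGNE value lay above the highest control value. The mean log2 difference was 1.26 ± 0.32 (SD, n = 3 pairs), or 2.40-fold, with 0.90, 1.41 and 1.48 in pairs 1, 2 and 3. A further GCLC probe set, 202923_s_at, gave 9.97, 9.61 and 9.92 in control cells and 10.96, 11.31 and 11.57 in siGNE cells. Its difference was 1.44 ± 0.40 (SD, n = 3 pairs), again with the smallest difference, 0.99, in pair 1. The remaining GCLC probe set, 1555330_at, lay between 2.17 and 2.32 on all 6 arrays, at background, and was not tested.

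The modifier subunit GCLM was also higher in all 3 pairs, and all 3 of its probe sets showed it. With 203925_at the control arrays gave log2 values of 12.07, 11.42 and 11.35 and the siGNE arrays 12.64, 12.57 and 12.53. The siGNE arrays lay within a narrow range (SD 0.06), while control array 1 stood above the other control arrays (SD 0.39). The mean difference was 0.97 ± 0.34 (SD, n = 3 pairs), or 1.96-fold, and the pairs gave 0.58, 1.15 and 1.18. The probe sets 234986_at and 236140_at gave differences of 0.93 ± 0.28 and 1.09 ± 0.13 (SD, n = 3 pairs). For 236140_at the arrays of number 3 were the lowest of each group, at 8.77 in control and 9.97 in siGNE cells. For both ligase subunits and for every bright probe set of either, pair 1 gave the smallest difference. Pair 1 was also the pair with the lowest GNE relative to its control, and a relation between these was not tested.

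Glutathione synthetase (GSS) showed a small difference that depended on the probe set. With 201415_at the control values were 9.93, 9.92 and 9.36 and the siGNE values 10.11, 10.23 and 9.53. Each siGNE value lay above its own control, but the groups overlapped because both arrays of number 3 were low. The difference was 0.22 ± 0.08 (SD, n = 3 pairs), or 1.17-fold. The other GSS probe set, 211630_s_at, had a mean log2 value of 10.41 in both groups and was higher in 1 of 3 pairs.

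**Figure D1:**
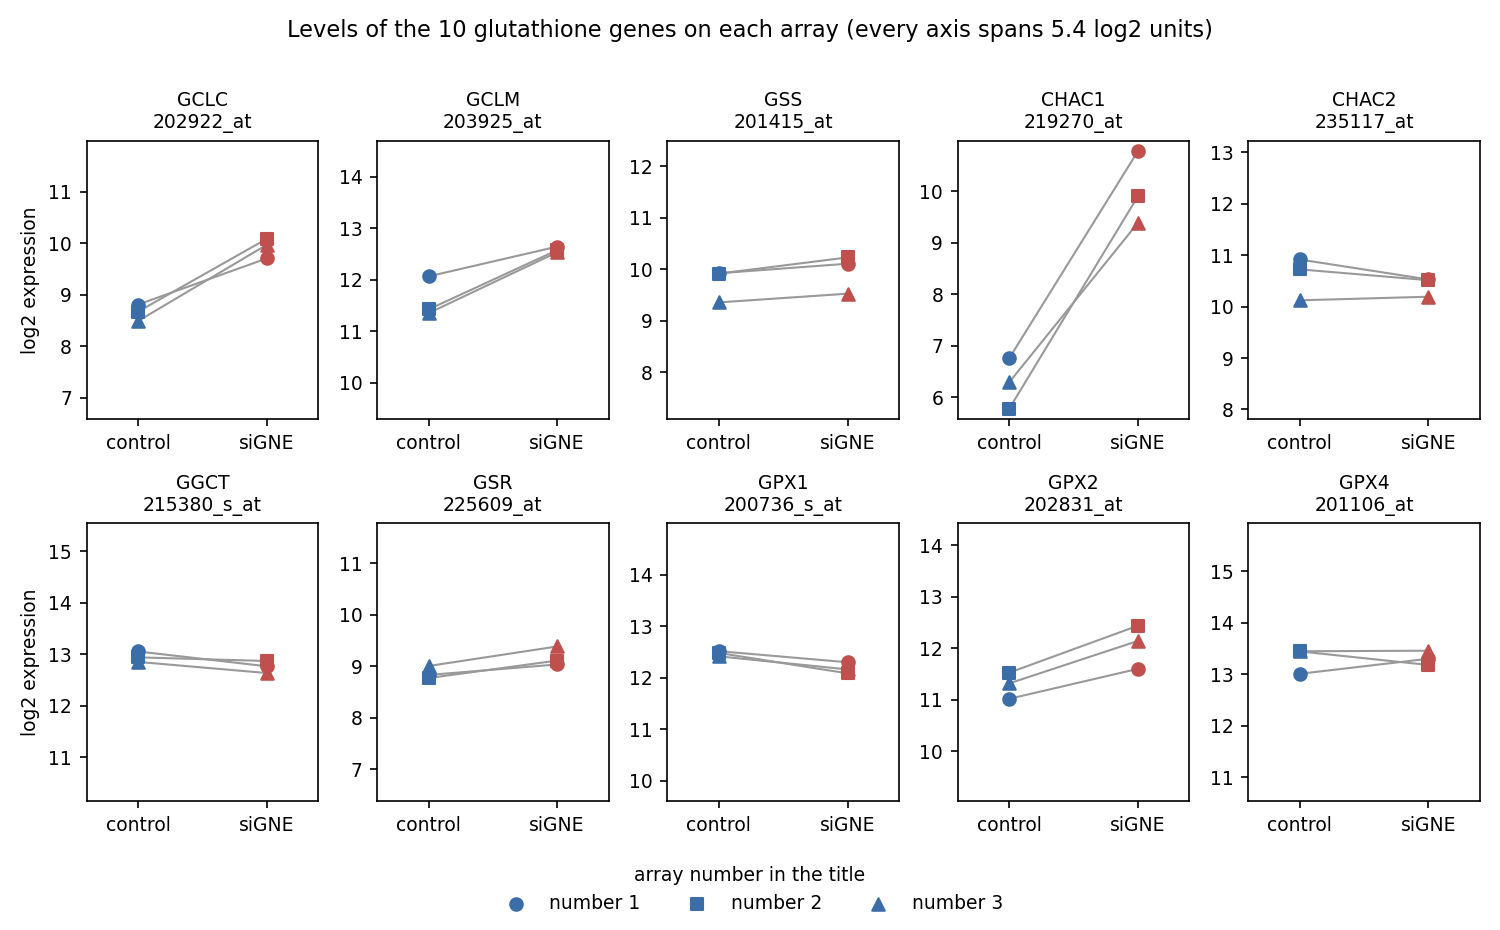
Log2 expression (vertical axis) of each of the 10 genes on the 3 control arrays (blue) and the 3 siGNE arrays (red), with 1 probe set per gene, symbols for the array number and a line joining each pair. CHAC1 runs from 5.78 to 6.76 in control cells and from 9.39 to 10.78 in siGNE cells, while the lines of CHAC2, GGCT and GPX4 are nearly flat.

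CHAC1, the glutathione-cleaving enzyme of the stress response, had the highest difference of all 22085 tested probe sets. Its only probe set, 219270_at, gave log2 values of 6.76, 5.78 and 6.30 on the control arrays and 10.78, 9.91 and 9.39 on the siGNE arrays. The groups were separated by more than the range of either. The mean difference was 3.75 ± 0.57 (SD, n = 3 pairs), or 13.4-fold, and the pairs stood at 16.2-fold, 17.4-fold and 8.55-fold. Pair 3 gave the smallest difference for CHAC1, unlike the ligase subunits, whose smallest difference was in pair 1. With 1 probe set and no other measure of the gene, the size of the CHAC1 difference rests on 219270_at alone.

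Its paralog CHAC2, a constitutive enzyme of the same reaction, did not share this difference. The probe set 235117_at gave 10.91, 10.72 and 10.12 in control cells and 10.53, 10.51 and 10.19 in siGNE cells. The siGNE values all lay within the control range. The difference was -0.18 ± 0.23 (SD, n = 3 pairs), with -0.39, -0.21 and 0.07 in the pairs, so the sign differed between pairs.

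GGCT, the gamma-glutamylcyclotransferase that acts downstream of glutathione breakdown, was slightly lower in all 3 pairs. The values of 215380_s_at were 13.05, 12.94 and 12.85 in control cells and 12.77, 12.87 and 12.64 in siGNE cells, and the groups overlapped through siGNE array 2. The difference was -0.19 ± 0.11 (SD, n = 3 pairs), which corresponds to 87.6% of control.

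Glutathione reductase (GSR) was slightly higher by the steadier of its probe sets. With 225609_at the control arrays gave 8.83, 8.77 and 9.01 and the siGNE arrays 9.04, 9.11 and 9.39, a difference of 0.31 ± 0.09 (SD, n = 3 pairs), or 1.24-fold. The groups did not overlap, although control array 3 and siGNE array 1 were only a small step apart. The other GSR probe set, 205770_at, varied mainly with the array number. It read 7.04, 6.17 and 8.78 in control cells and 6.78, 7.06 and 9.49 in siGNE cells. The arrays of number 3 stood above the mean of the others by 2.17 in control cells and by 2.57 in siGNE cells, against 0.20 and 0.31 for 225609_at. The siGNE minus control difference of 205770_at was 0.45 ± 0.62 (SD, n = 3 pairs) and was negative in pair 1. The arrays of number 3 also had the lowest 3′ minus 5′ difference of actin in each group, and its part in the GSR values was not tested.

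**Figure D2:**
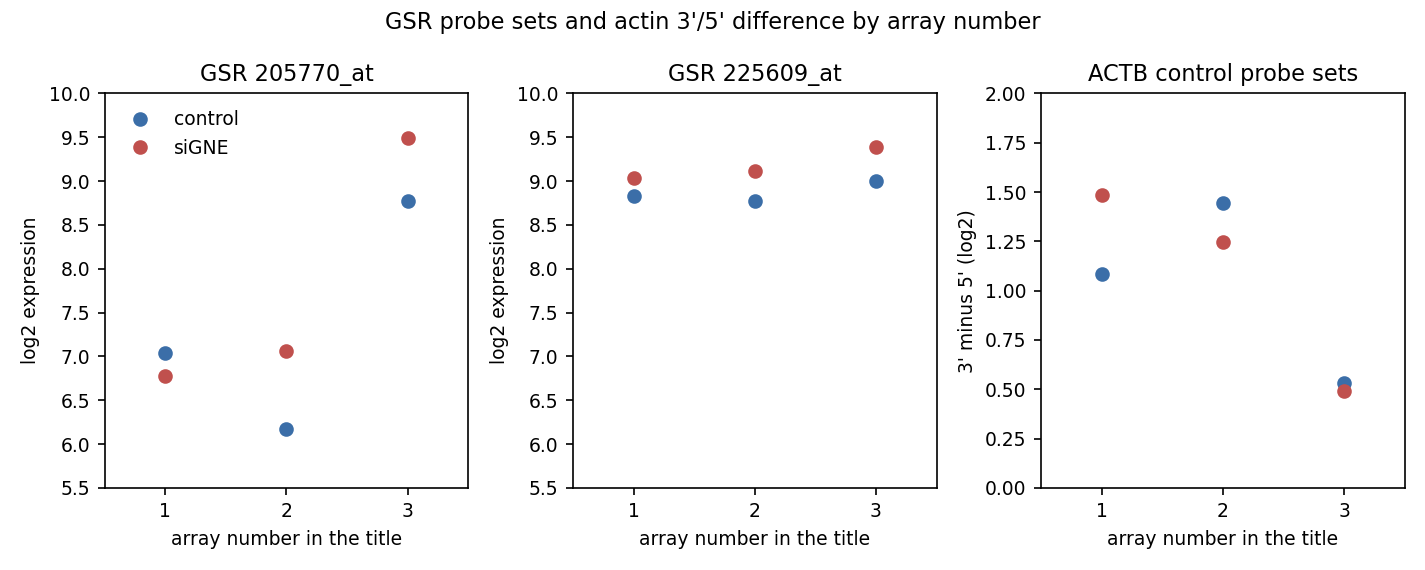
Left and middle, log2 expression (vertical axis) of the GSR probe sets 205770_at and 225609_at by array number, with control arrays in blue and siGNE arrays in red. Right, the 3′ minus 5′ log2 difference of the actin control probe sets on the same arrays, where number 3 stands at 0.53 and 0.49 while 205770_at is at its highest, 8.78 and 9.49.

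The 3 peroxidases went different ways. GPX2, the peroxidase of epithelium and the gastrointestinal tract, was higher in all 3 pairs. The probe set 202831_at gave log2 values of 11.02, 11.53 and 11.32 in control cells and 11.60, 12.44 and 12.14 in siGNE cells. The groups did not overlap, but siGNE array 1 lay close above control array 2. The difference was 0.77 ± 0.17 (SD, n = 3 pairs), or 1.71-fold, and pair 1 again gave the smallest value, 0.58, against 0.91 and 0.82. A dim GPX2 probe set, 239595_at, lay between 4.42 and 4.73 on all arrays and differed by 0.10 ± 0.18 (SD, n = 3 pairs).

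GPX1, the ubiquitous cytosolic peroxidase, was lower in all 3 pairs. The probe set 200736_s_at gave 12.51, 12.48 and 12.41 on the control arrays, an SD of 0.05, and 12.30, 12.08 and 12.16 on the siGNE arrays. All siGNE values lay below all control values. The difference was -0.29 ± 0.10 (SD, n = 3 pairs), which leaves 81.9% of control. GPX4, the peroxidase that reduces lipid peroxides in membranes, showed no shared direction. Its values on 201106_at were 13.01, 13.45 and 13.45 in control cells and 13.31, 13.18 and 13.46 in siGNE cells, and the groups overlapped. The pairs gave 0.29, -0.26 and 0.01, with a mean of 0.01 ± 0.28 (SD, n = 3 pairs).

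**Figure D3:**
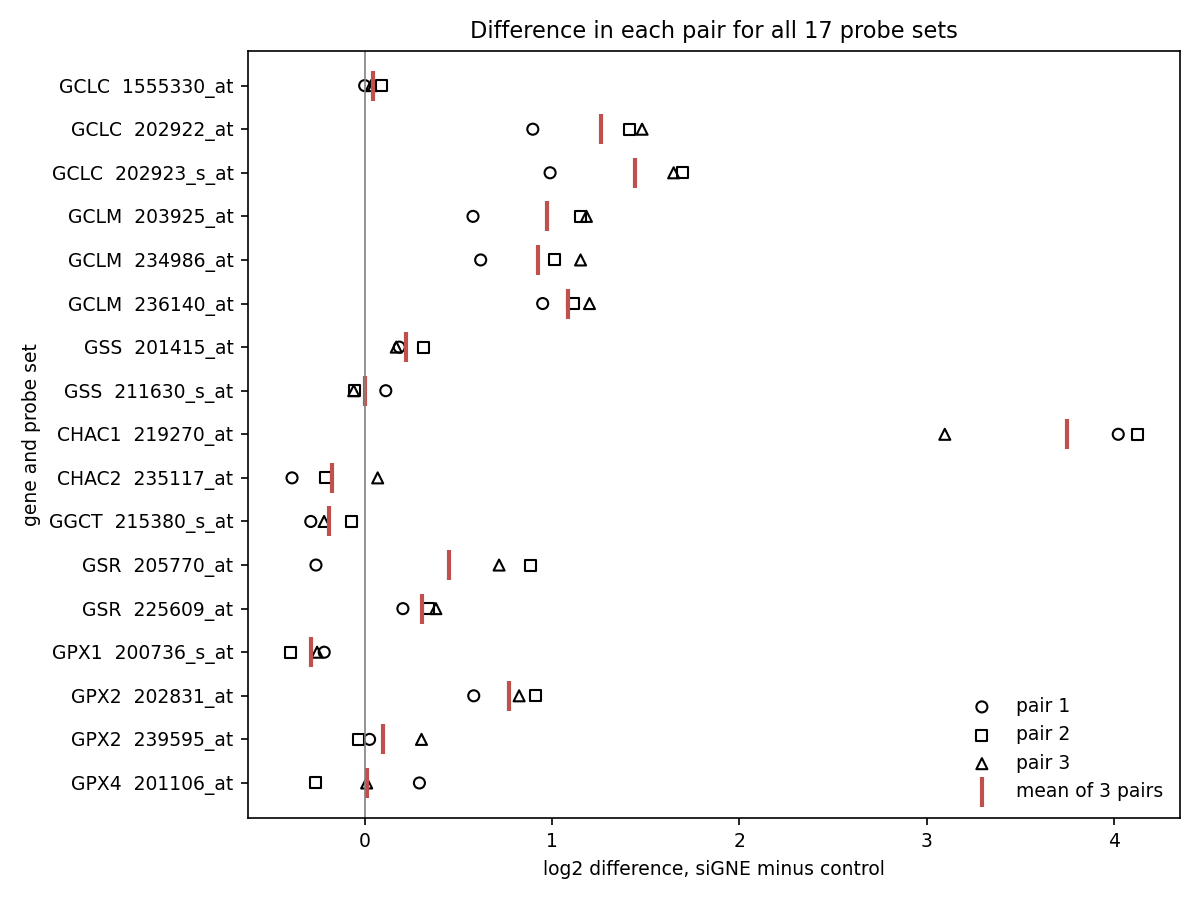
The siGNE minus control log2 difference (horizontal axis) of all 17 probe sets of the 10 genes, with an open symbol for each pair and a red bar for the mean of 3 pairs. The bright probe sets of GCLC and GCLM lie between 0.58 and 1.70 in every pair, and CHAC1 lies at 3.10 or above.

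Taking 1 probe set per gene, 6 of the 10 genes were higher in all 3 pairs. Lower in all 3 pairs were 2 (GGCT and GPX1), and 2 had mixed signs (CHAC2 and GPX4). The share of all tested probe sets with the same sign in all 3 pairs is not given here, so nothing is read from these counts. Among the 45 other tested genes of glutathione metabolism described below, 18 were higher and 17 lower in all 3 pairs. The median difference of the 10 genes was 0.27, with 0.25, 0.33 and 0.27 in pairs 1, 2 and 3, while the median of all 22085 tested probe sets was -0.01. In order of difference among all tested probe sets, CHAC1 was number 1, GCLC number 117, GCLM number 234 and GPX2 number 440 from the top. GSR was number 2879, GSS number 4359, GPX4 number 10240, CHAC2 number 15779, GGCT number 16118 and GPX1 number 17815. Of the 16 member probe sets that passed the filter (a mean above 4), 8 had all siGNE values above all control values, against 8.39% of all tested probe sets. The 8 belong to CHAC1, GCLC, GCLM, GSR and GPX2, several with more than 1 probe set. That of GPX1 had them all below, against 12.0%. The choice of members with this contrast known builds in such separation, so these shares are a description only.

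Calls were made with limma at a Benjamini-Hochberg adjusted p under 0.05 over all tested probe sets. Without a term for the array number, 0 of the 16 member probe sets passed, against 0.0408% of all tested probe sets in the upward direction. An unadjusted p under 0.05 in that limma fit was reached by 8 of the 16, against 14.6% of all tested probe sets. With the array number as a block, 7 of the 16 passed upward, against 4.13% of all, and 0 passed downward, against 5.35%. The 7 belong to CHAC1, GCLC, GCLM and GPX2. Because the members were chosen with this contrast known, nothing is read from these shares.

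**Figure D4:**
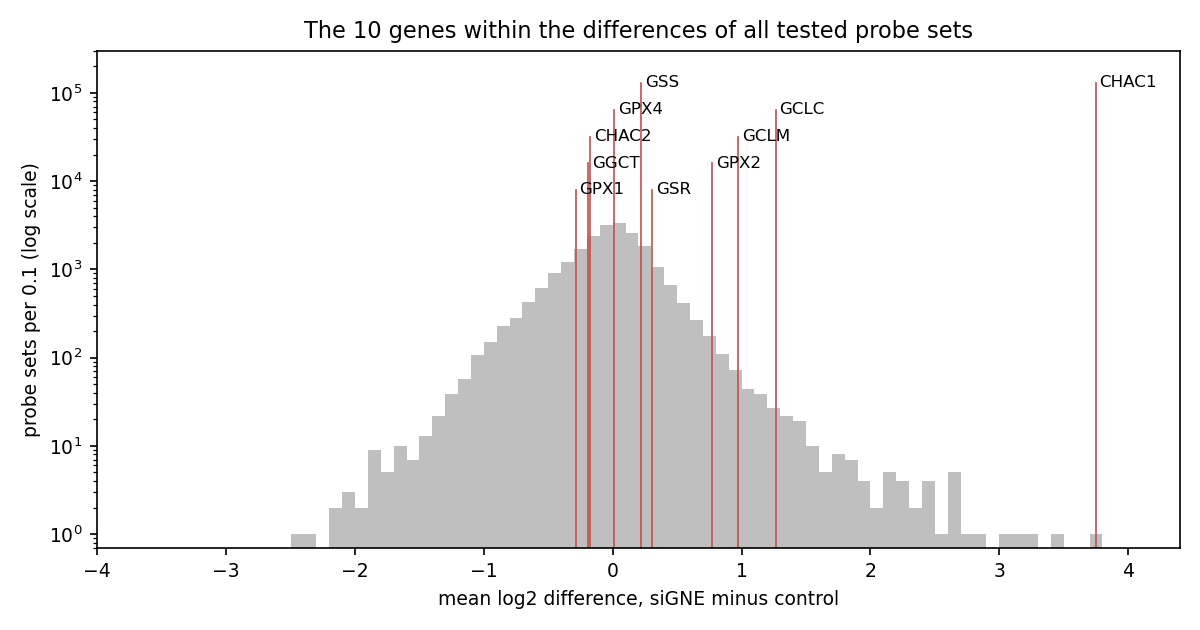
Histogram of the mean siGNE minus control log2 difference (horizontal axis) of all 22085 tested probe sets, with the number of probe sets per bin of 0.1 on a log axis and a red line for each of the 10 genes. CHAC1, at 3.75, is at the far right end, while GGCT, CHAC2, GPX4 and GSS lie in the dense middle, between -0.19 and 0.22.

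Other genes of glutathione metabolism were taken from a list of 61 that excludes the members. Of these, 58 had a probe set of their own and 45 were tested. The list was written with earlier results of these data known, so its counts and p-values are a description only. In limma without the block 0 of the 45 passed, and 10 had an unadjusted p under 0.05, against 14.6% of all tested probe sets. With the replicate block, 7 rose (against 4.13% of all tested probe sets) and 1 fell (against 5.35%). The 7 include CTH, tested only because of its siGNE values, and GSTM1, GSTM2 and GSTM4, whose probe sets are not separate measurements. Nothing is read from these counts. The median difference of the 45 was 0.01, against -0.01 over all tested probe sets. Positive differences were found for 23 of the 45, near the 48.6% of all tested probe sets.

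The supply of cysteine held 4 of the 7 that rose, of which CTH and CBS carry the limits given below. SLC7A11, the cystine carrier of system xc-, gave log2 values of 9.30, 8.96 and 8.64 in control cells and 10.83, 11.09 and 10.61 in siGNE cells. The groups did not overlap, and the difference was 1.88 (limma SE 0.21 without and 0.14 with the block). The limma adjusted p was 0.0643 without and 0.0195 with the block. Its heavy chain SLC3A2 rose by 1.20 (limma adjusted p 0.110 without and 0.0186 with the block). The transsulfuration enzymes CBS and CTH, which make cysteine from homocysteine, rose by 0.70 and 0.70 with the block (limma adjusted p 0.0285 and 0.0410). CTH read 3.86 in control and 4.56 in siGNE cells, near background, where sizes are uncertain. Its control mean lay under the filter of 4, so CTH was tested only because of its siGNE values, and its call supports nothing. Another CBS probe set, at 0.45, did not pass (limma adjusted p with the block 0.122). MAT2A (-0.21) and AHCY (-0.40), of the methionine cycle that feeds transsulfuration, did not pass in either fit.

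Of 14 tested glutathione transferases, which conjugate glutathione to electrophiles, GSTM1 (0.69), GSTM2 (0.54) and GSTM4 (0.75) rose and GSTZ1 (-0.48) fell with the block, with limma adjusted p of 0.0359, 0.0433, 0.0409 and 0.0422. The GSTM1, GSTM2 and GSTM4 probe sets can cross-hybridise between these near-identical genes, so they are not separate measurements. GSTM3 (0.75), GSTA4 (-0.52), GSTK1 (-0.42) and GSTT2 (-0.31) did not pass. GSTM3 was at 0.29 with its brighter probe set, which did not pass either.

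None of the genes tested in the remaining lists passed in either limma fit by the probe set taken by rule. Among the gamma-glutamyl cycle and peptidase genes these were GGT7 (-0.86), OPLAH (0.51), LAP3 (-0.09), GGACT (0.08) and NIT2 (0.05). Another GGT7 probe set, at -0.85, passed with the block (limma adjusted p 0.0470). The other peroxidases were GPX3 (0.26), GPX8 (0.24) and PRDX6 (0.05), and the glutaredoxins were GLRX2 (0.21), GLRX (0.16) and GLRX5 (0.01). GPX3 was at -0.02 with its brighter probe set and PRDX6 at -0.10 with its other probe set. Of the selenocysteine insertion genes, on which GPX1, GPX2 and GPX4 depend, PSTK was at 0.59, SEPHS1 at -0.22, SEPSECS at -0.16 and SECISBP2 at 0.09. The mitochondrial carriers SLC25A40 (-0.37), SLC25A11 (-0.34) and SLC25A10 (-0.29), the exporter ABCC1 (-0.15), and HAGH (-0.16), GLO1 (0.16) and ESD (-0.12) complete the named genes.

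**Figure D5:**
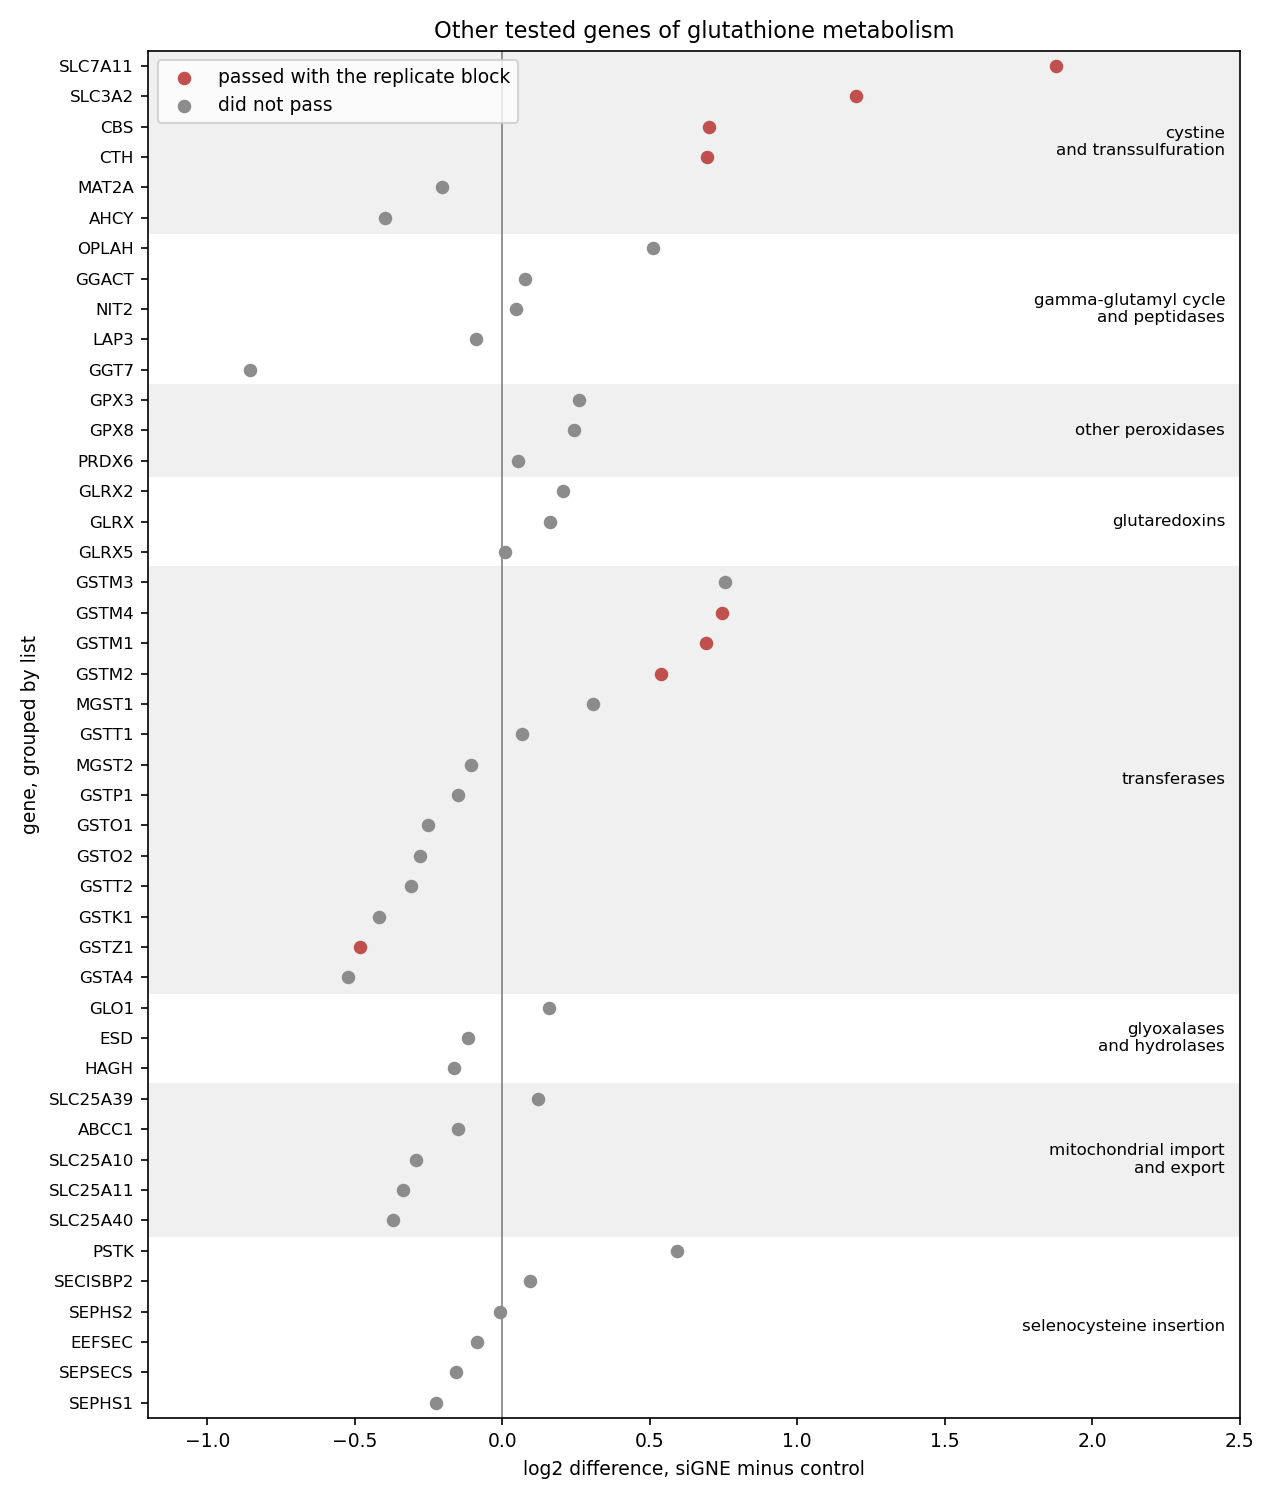
The 45 other tested genes of glutathione metabolism, with the siGNE minus control log2 difference on the horizontal axis and genes grouped by list on the vertical axis. The 8 genes in red passed limma with the replicate block, led by SLC7A11 at 1.88 and SLC3A2 at 1.20. They include CTH, tested only because of its siGNE values, and GSTM1, GSTM2 and GSTM4, whose probe sets are not separate measurements.

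The gene profiles most like that of CHAC1 over the 6 arrays were sought by Pearson correlation among 9871 genes. The closest were MTHFD2 (r = 0.995), SSR3 (0.995), SLC22A5 (0.995), CEBPG (0.993) and CXCL16 (0.993). Their differences were 1.05, 3.13, 0.78, 1.03 and 0.47. With 3 arrays in each of 2 groups such values mainly follow the group difference, and 125 genes had r above 0.95, so the order among them is a description only.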

How the data were processed

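Expression was measured on 6 Affymetrix arrays of Capan-1 cells (3 siGNE, 3 control). The deposited table holds log2 values for 54675 probe sets, made with GCRMA, which models background from probe sequence, per the submitters' processing notes. The sources used here do not state its version, chip definition or whether all arrays were processed jointly. The values were used as deposited. There is no sequencing depth on arrays, and their number limits the precision.

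The platform annotation gave a single gene for 41097 probe sets, which alone were named, with symbols taken by gene identifier from the RefSeq gene table. A gene was represented by its probe set with the highest mean, without _x_ and _s_ probe sets (prone to bind several transcripts) where it had another. Named genes are the members, listed genes that pass, the 4 largest other differences per list, and the 5 profiles most like the member with the largest difference. Other genes named (KRT7, COL1A1, NIT2 and further probe sets) were picked after their values were seen.

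The test was limma 3.58.1 in R 4.3.3, checked on simulated data, over 22085 probe sets with a mean above 4, without 62 control probe sets. Same-number arrays deviated together (correlations 0.58, 0.71 and 0.83, above the limit of 0.1). Arrays of different numbers gave -0.64 to 0.17, and those of numbers 1 and 2, at 0.14 and 0.17, also exceeded that limit. The numbers in the titles were therefore taken as pairs without proof, and the fit with the number as a block stands beside the main one. The members and lists were chosen with earlier results of these data known. Alternatives covered the filter, a floor, normalization, variance models, probe set choice, the threshold and arrays left out.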

Additional observations from a re-analysis of the deposited data

How the results depend on the processing

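The differences of CHAC1, GCLC, GCLM, GPX2, GSR and GPX1 kept their sign under all alternatives run, and the 9 settings that leave out arrays gave 3.37 to 4.07, 1.16 to 1.45, 0.84 to 1.20, 0.58 to 1.003, 0.20 to 0.38 and -0.35 to -0.23. Averaging all probe sets, dim ones included, lowered GPX2 to 0.44 and GCLC to 0.92. With arrays left out, GSS ran from 0.04 to 0.44, CHAC2 from -0.41 to -0.01 and GPX4 from -0.13 to 0.15. The median of the 10 genes was 0.21 to 0.32 with arrays left out and 0.16 with the highest-mean probe sets. The cause was not tested in any case below.

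Probe sets that rose and fell in limma numbered 9 and 0 in the main analysis, 913 and 1182 with the replicate block, 917 and 1322 with block and median centring, 2 and 1 with no filter, 29 and 6 with a mean above 6, 19 and 1 after quantile normalization, 40 and 9 with a trended variance and 121 and 98 at an adjusted p under 0.1. They were 0 and 0 with any array or pair left out, in fits with fewer residual degrees of freedom. Of the other glutathione genes, 7 rose and 1 fell with the replicate block, with or without centring, 1 rose and 0 fell with a mean above 6, a trended variance or an adjusted p under 0.1, and 0 otherwise. With the highest-mean probe sets and the block, an alternative chosen after seeing the data, 6 rose and 2 fell. TRNAU1AP (-0.56) joined and CBS left.

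The sign of GSS (0.22) turned to -0.00026 with its highest-mean probe set. None of the other genes whose sign turned had passed in either fit. With all probe sets averaged PRDX6 was -0.0216 and SEPSECS 6.61e-06, and GPX3 was -0.0229 with its highest-mean probe set, with or without the block. With 1 array left out LAP3 ran from -0.141 to 0.0056, SEPSECS from -0.277 to 0.0237, GLRX5 from -0.115 to 0.124 and PRDX6 from -0.0175 to 0.0995. GLRX5 was -0.0063 without pair 2 and -0.0016 without pair 3, with the replicate block.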

Other observations

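Probe sets of 1 gene did not always move together. SSR3, a subunit of the translocon-associated complex of the endoplasmic reticulum, was among the profiles most like CHAC1 by its probe set 237817_at, whose mean over 3 arrays was 7.18 (SD 0.34) in control and 10.31 (SD 0.52) in siGNE cells. Its 3 other probe sets were lower after siGNE, by differences of -0.79, -0.53 and -0.19, with log2 values between 8.04 and 13.88. Which transcript 237817_at reads was not tested.

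The glutaredoxin GLRX3 was represented by a probe set near background. A brighter GLRX3 probe set, 214205_x_at, rose by 0.53 in limma with the block (adjusted p 0.0381), while 209080_x_at, at 0.30, did not pass (limma adjusted p 0.0905 with the block).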
